A study of Mus musculus with 4 samples.

Results

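The S100 calcium-binding protein genes were described in RNA-seq libraries of mouse myeloid cells with and without a myeloid deletion of PD-1, the inhibitory receptor encoded by Pdcd1. The members are the 8 genes S100a1, S100a4, S100a6, S100a8, S100a9, S100a10, S100a11 and S100a13, found by gene symbol among the 24706 genes measured in every library. They were compared as the calprotectin pair, S100a8 and S100a9, and the other 6. There were 4 libraries, 2 labelled wt and 2 labelled cko. The cko mice are PD-1f/f; LysM-Cre, in which exon sequence of Pdcd1 lies between LoxP sites and Cre is expressed from the Lyz2 (LysM) locus of myeloid cells. The wt mice are PD-1f/f in the figures and wild-type in the methods of the study, so that whether the controls carried the floxed allele was not settled. The labels give no strain, sex or age. The methods describe RNA of livers at postnatal day 2 and the results describe CD11b+ cells sorted from the liver at postnatal day 3, and neither the labels nor the methods say that libraries of a group came from separate mice. The p-values below therefore measure only the spread between these libraries, which may be technical in the cko group. By their Xist and Y-linked transcripts, given below, the wt libraries came from different animals.

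S100 proteins are small proteins with a pair of EF-hand loops that bind calcium, and most of them act as dimers that expose a binding surface for partner proteins once calcium is bound. S100A8 and S100A9 join to form calprotectin, one of the most abundant proteins of the neutrophil cytosol, which withholds zinc and manganese from microbes and, when released, is sensed by the receptors TLR4 and RAGE. Neutrophil precursors of the liver and bone marrow build up transcripts of this pair as they mature, whereas S100A6, S100A10 and S100A11 are found in many cell types, where they bind annexins and other membrane-associated proteins.

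Both genes of the pair were lower in both cko libraries than in both wt libraries, S100a8 at 46.6% and S100a9 at 60% of the wt mean. S100a6 was higher in both cko libraries, S100a11 and S100a13 were slightly lower in both, S100a1 and S100a10 overlapped between the groups, and S100a4 was listed at or near 0 in every library. No member passed the threshold of the study's methods (a log2 fold change of at least 1 in either direction with a Benjamini-Hochberg adjusted p under 0.05 in limma), and 0% of the 10779 tested genes did. Of all tested genes 1768 had an unadjusted p under 0.05, and with voom on the recovered reads 2 genes passed the methods threshold, neither of them a member.

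The start regions of the pair are shown because both genes were lower in cko, beside that of S100a6, which was higher, and that of Stfa1, the gene whose profile over the libraries was nearest to that of S100a8. Each is the RefSeq window (GRCm38.p6) from 250 bases before to 50 bases after the gene's start, read 5′ to 3′ on the strand of the gene. Capitals mark matches, on either strand, to TTNNGNAA (a form of the motif bound by C/EBP factors, which act in granulocyte maturation), to GAGGAA (the core bound by PU.1, a factor of myeloid cells) and to the TATA box TATAAA.
S100a8, chr3:90668821-90669120, plus strand: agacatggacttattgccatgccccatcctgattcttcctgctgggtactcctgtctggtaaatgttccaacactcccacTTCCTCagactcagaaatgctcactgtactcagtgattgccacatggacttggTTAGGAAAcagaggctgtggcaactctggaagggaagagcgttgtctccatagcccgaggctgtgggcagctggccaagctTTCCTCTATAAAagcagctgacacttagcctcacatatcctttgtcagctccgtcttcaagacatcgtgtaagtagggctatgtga
S100a9, chr3:90695672-90695971, minus strand: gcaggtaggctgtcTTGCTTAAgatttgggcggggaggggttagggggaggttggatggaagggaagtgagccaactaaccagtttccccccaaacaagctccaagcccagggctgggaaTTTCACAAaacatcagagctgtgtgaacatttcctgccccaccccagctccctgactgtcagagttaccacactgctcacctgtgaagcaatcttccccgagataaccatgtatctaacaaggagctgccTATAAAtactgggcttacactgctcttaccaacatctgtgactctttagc
Stfa1, chr16:36276898-36277197, plus strand: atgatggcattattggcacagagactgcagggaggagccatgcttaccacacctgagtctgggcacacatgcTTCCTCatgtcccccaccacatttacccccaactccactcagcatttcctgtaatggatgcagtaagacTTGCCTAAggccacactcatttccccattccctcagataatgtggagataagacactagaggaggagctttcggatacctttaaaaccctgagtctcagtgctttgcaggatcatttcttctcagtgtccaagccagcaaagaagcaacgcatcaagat
S100a6, chr3:90612644-90612943, plus strand: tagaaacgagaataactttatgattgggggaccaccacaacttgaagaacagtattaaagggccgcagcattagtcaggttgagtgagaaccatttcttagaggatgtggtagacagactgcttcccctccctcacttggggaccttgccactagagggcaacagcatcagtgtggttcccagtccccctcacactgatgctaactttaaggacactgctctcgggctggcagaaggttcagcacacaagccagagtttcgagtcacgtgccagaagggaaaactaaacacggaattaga
The S100a8 window held 1 C/EBP match, whose first base lies at -117 from the start, and PU.1 matches at -170 and -36, the last of which adjoins a TATA box at -30. The S100a9 window held C/EBP matches at -236 and -130 and a TATA box at 1, and no PU.1 match. Positions count from the annotated start of each gene. Whether transcription begins there was not tested, so that positions may not compare between genes. The window of Stfa1 held 1 C/EBP match at -109 and 1 PU.1 match at -178, and that of S100a6 held no match to any of the 3 motifs. Of the 8 members, 7 had a window, and no C/EBP match was found in the windows of the members other than S100a8 and S100a9. Over all 32544 distinct windows of this length, 40.7% held a C/EBP match, 28.1% a PU.1 match and 13.6% a TATA box, so that each match is common and describes letters only.

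FPKM scales the reads of a gene to its length and to the total of reads counted in the library, so that levels of different genes can be compared. The libraries held 17691505 to 22212407 counted reads, worked out from the steps of the deposited values. The label was checked against markers. Itgam, which encodes CD11b, had 51.4 and 54.3 FPKM in wt replicates 1 and 2 and 48.5 and 49.4 FPKM in cko replicates 1 and 2, and Ngp and S100a9, both neutrophil genes, were the 2 highest genes of every library, whereas the T cell markers measured summed to at most 0.268 FPKM in any library. Red cell and liver cell transcripts were present too. The summed level of the erythroid list was 3719 and 2340 FPKM in the wt and 1425 and 1521 FPKM in the cko libraries, and that of the hepatocyte list was 60.4 and 102 FPKM against 43.0 and 52.6 FPKM. Pdcd1 itself had 28.5 and 34.7 FPKM in the wt and 17.1 and 21.4 FPKM in the cko libraries, or -0.69 on the log2 scale (SE 0.19; limma, adjusted p = 0.218), so that transcripts of the targeted gene remained in both cko libraries. Of the 4 libraries only wt replicate 2 carried more than traces of Y-linked transcripts, with Ddx3y at 24.9 FPKM. Xist was at 0.0119 FPKM in this library, against 4.91 FPKM in wt replicate 1 and 6.67 and 7.98 FPKM in the cko libraries. The wt libraries thus differ from each other in sex, and sex is not balanced between the groups. The part of sex in the levels was not tested.

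S100a8, on the plus strand of chromosome 3 from 90668978 to 90670035 (GRCm38), had 32243 FPKM in wt replicate 1, 21503 in wt replicate 2, 13010 in cko replicate 1 and 12062 in cko replicate 2. The wt libraries lay above the cko libraries and also apart from each other, whereas the cko libraries were close. In FPKM the gap between the wt libraries was larger than that between wt replicate 2 and cko replicate 1. The means were 26873 ± 7594 FPKM in wt and 12536 ± 670 FPKM in cko (SD, n = 2 each). On the log2(FPKM + 1) scale the difference was -1.07 (standard error 0.23), with an unadjusted p = 0.00447 and an adjusted p = 0.21 from limma. It was the only member with a log2 fold change below -1 and an unadjusted p under 0.01, a rule that 0.408% of all tested genes met, and 0.714% of the tested genes had a lower fold change. In bulk RNA fewer cells of a type and less RNA per cell cannot be told apart, and this holds for every level given here.

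S100a9, on the minus strand from 90692632 to 90695721, had 52186 and 39000 FPKM in wt replicates 1 and 2 and 28604 and 26142 FPKM in cko replicates 1 and 2. It showed the same order of libraries as S100a8 over a smaller range. The means were 45593 ± 9324 and 27373 ± 1741 FPKM (SD, n = 2 each), and the log2 fold change was -0.72 (standard error 0.21, unadjusted p = 0.0142, adjusted p = 0.228, limma). S100a9 was the highest gene of all in wt replicate 1 and the second highest in the other libraries, and S100a8 was at rank 3 or 4 in each. With 148092 to 605095 reads per gene and library, the 95% counting intervals of the pair reached at most 0.51% to either side of the value, so that the gap between the wt libraries is far larger than counting error.

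**Figure D1:**
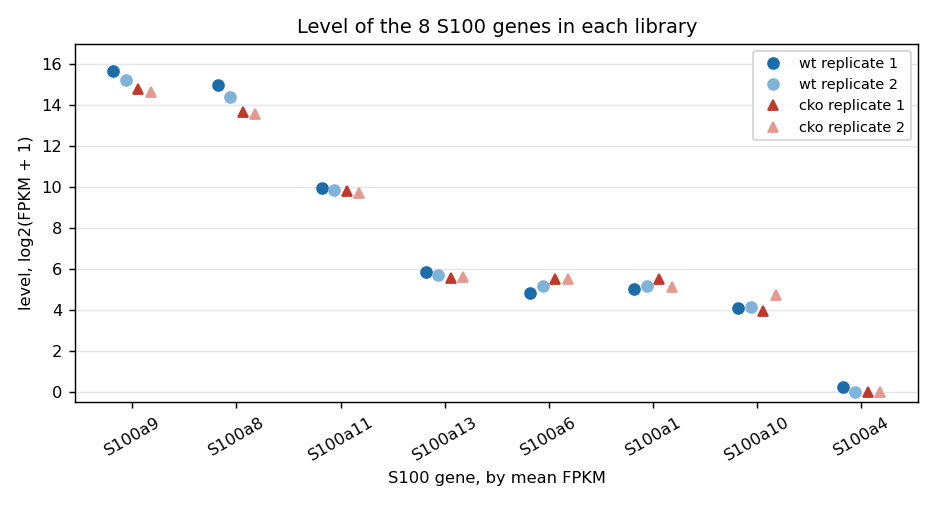
Level of each of the 8 S100 genes as log2(FPKM + 1), with 1 point per library, wt as circles and cko as triangles. The calprotectin pair stands far above the others in every library and its cko points lie below its wt points, S100a11 comes next, and S100a4 is at or near 0.

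Of the genes with broader expression, S100a6 (calcyclin, on the plus strand from 90612882 to 90624181) had 27.2 and 34.8 FPKM in the wt and 43.9 and 45.0 FPKM in the cko libraries. Both cko values were above both wt values, and the wt values differed from each other by more than the cko values did. The means were 31.0 ± 5.36 and 44.4 ± 0.79 FPKM (SD, n = 2 each), a log2 fold change of 0.51 (standard error 0.17, unadjusted p = 0.0253, adjusted p = 0.254, limma). It was the only member higher in cko with an unadjusted p under 0.05, as were 11.4% of all tested genes, and the members lower by the same rule were S100a8 and S100a9, as were 4.95% of all tested genes. No member was above a log2 fold change of 1 with an unadjusted p under 0.01, against 1.88% of the tested genes.

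S100a11, which binds annexin A1, was the third member by level, with 989 and 940 FPKM in the wt and 891 and 846 FPKM in the cko libraries. The groups did not overlap, but the difference of -0.15 (standard error 0.13, unadjusted p = 0.299, adjusted p = 0.59, limma) was about as large as its error. S100a13, which takes part in the release of FGF1 and interleukin 1 alpha by a route that bypasses the Golgi, had 57.4 and 50.7 FPKM in the wt and 45.4 and 48.1 FPKM in the cko libraries. Its difference was -0.20 (standard error 0.14, unadjusted p = 0.213, adjusted p = 0.505, limma). Both cko libraries were thus below both wt libraries for 4 of the 7 tested members, where 18.0% of all tested genes were, and above them for 1, where 33.6% were.

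S100a1, which regulates calcium handling in muscle, had 31.0 and 34.8 FPKM in the wt and 44.9 and 34.0 FPKM in the cko libraries. Only cko replicate 1 stood above the rest, and the difference of 0.24 (standard error 0.19, unadjusted p = 0.243, adjusted p = 0.535, limma) was within the spread of the cko libraries. S100a10, the partner of annexin A2, had 15.9 and 16.4 FPKM in the wt and 14.3 and 25.5 FPKM in the cko libraries. Here cko replicate 2 alone was high, with 546 reads against 325 to 428 in the others, and the log2 fold change of 0.23 (standard error 0.28, unadjusted p = 0.437, adjusted p = 0.699, limma) turned to -0.16 without that library.

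S100a4, which binds non-muscle myosin and is widely used as a marker of fibroblasts and of some macrophages, was listed at 0.154 FPKM in wt replicate 1, from 2 reads, and at 0 in the other 3 libraries. Both groups were at or under the level of 3 reads, which is 0.231 FPKM in wt replicate 1 and up to 0.29 FPKM in cko replicate 2, and no fold is given. Of its 584 exonic bases, 302 (51.7%) are shared with Gm42674, a gene annotated on the same strand that is not among the measured genes. Reads on shared bases can be set aside or given to another gene in counting, and the part of this overlap in the value was not tested.

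By mean level in wt, the order was S100a9, S100a8, S100a11, S100a13, S100a1, S100a6, S100a10 and S100a4. S100a9 was above S100a8 within every library, although the lowest S100a9 value, in cko, lay below the highest S100a8 value, in wt. S100a1 and S100a6 could not be told apart by level in the wt libraries, where their values interleaved. In cko, S100a13 (46.8 ± 1.85 FPKM) was slightly above S100a6 (44.4 ± 0.79 FPKM) in both libraries, but their 95% counting intervals overlapped in each. S100a1 (39.4 ± 7.73 FPKM) was below S100a13 in both cko libraries. It was above S100a6 in cko replicate 1, at 44.9 FPKM, and below it in cko replicate 2, at 34.0 FPKM.

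The pair stood further above the other members in wt than in cko. The mean log2(FPKM + 1) of the pair minus that of the other 6 was 10.34 and 9.82 in wt replicates 1 and 2 and 9.19 and 9.0 in cko replicates 1 and 2, a difference of -0.99 between the group means. In the FPKM as deposited this difference came almost wholly from the pair, whose mean log2 level was lower by -0.90 (15.07 ± 0.36 against 14.18 ± 0.08, SD, n = 2 each), whereas that of the other 6 was higher by 0.09 (5.0 ± 0.01 against 5.08 ± 0.05). That split depends on the scaling. With erythroid and hepatocyte genes removed and summed FPKM made equal, S100a8 and S100a9 stood at -0.86 and -0.51. The tested others stood at 0.72 (S100a6), 0.45 (S100a1), 0.43 (S100a10), 0.06 (S100a11) and 0.00 (S100a13). After median-of-ratios rescaling the pair stood at -1.19 and -0.84. As a within-library value, the whole difference of -0.99 does not depend on how libraries are scaled to each other, except through the added 1.

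The 2 genes of the pair did not keep a fixed proportion. S100a9 had 1.62 and 1.81 times the FPKM of S100a8 in wt replicates 1 and 2 and 2.2 and 2.17 times in cko replicates 1 and 2. The cko libraries were nearly equal in this ratio and both were above the wt libraries (1.72 ± 0.138 against 2.18 ± 0.0222, SD, n = 2 each). On the log2 scale S100a8 over S100a9 was thus lower in cko by -0.35, given as a description with no test. The pair took 17.2% and 13.2% of all FPKM in the wt and 10.1% and 9.46% in the cko libraries, against 0.228% to 0.252% for the other 6 together. Its share of the reads was smaller, 4.96% and 3.53% in wt and 2.40% and 2.2% in cko, since both transcripts are short.

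**Figure D2:**
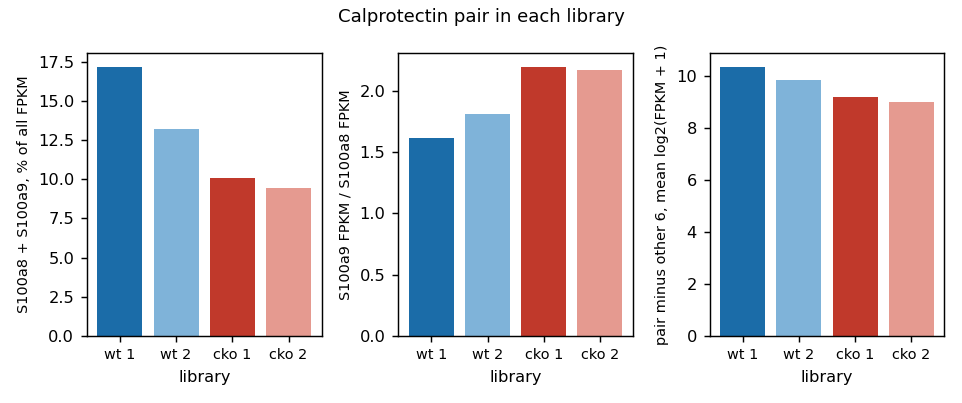
S100a8 and S100a9 together as a percent of all FPKM, the ratio of S100a9 to S100a8 FPKM, and the mean log2(FPKM + 1) of the pair minus that of the other 6 members, with 1 bar per library. The share and the distance to the other members are lower in both cko libraries, and the ratio is higher, at 2.2 and 2.17 against 1.62 and 1.81.

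FPKM are relative to the reads counted in a library, and they did not sum to the same total in each. The sum of all FPKM was 474555 ± 24647 in wt and 408339 ± 6277 in cko (SD, n = 2 each), a net difference of 66216. The pair was lower in cko by 32557, a value as large as 49.2% of it. Lyz2, which encodes lysozyme and whose locus carries Cre in the cko mice, was lower by 22452. Camp, which encodes the granule peptide cathelicidin, was lower by 9883, and Stfa1, given below, was lower too. Genes that were higher also enter the net difference, so that these values are not parts of a whole. The median log2 fold change of all tested genes was 0.09. With libraries rescaled by the median of ratios it was -0.01, and the fold changes of the members then moved to -1.19 at the lowest for S100a8 over the scalings tried and to between 0.40 and 0.72 for S100a6. When erythroid and hepatocyte genes were removed and the rest rescaled to the same summed FPKM, the median of all genes moved to 0.27. The genes removed are a small part of the sum. In wt replicate 1 the erythroid list held 3719 of 491983 FPKM, so that the move comes mostly from the equal sums. In this setting S100a11 and S100a13 stood at 0.06 and 0.00. The direction of these last genes thus depended on the scaling, whereas S100a8 (-1.19 to -0.86), S100a9 (-0.84 to -0.51) and S100a6 kept theirs under the 3 rescalings of the libraries.

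Quantile normalization, which gives each rank the same value in every library, moved S100a8 to 0.19 and S100a9 to -0.20. It cannot show a change of genes that stay at the top of the list, as the pair did at ranks 1 to 4 in all 4 libraries. By leaving out 1 library at a time, S100a8 ranged from -1.36 to -0.78 and S100a9 from -0.93 to -0.51, and S100a6 from 0.34 to 0.69. Without wt replicate 1, the library in which the pair was highest, the differences were the smallest, at -0.78 for S100a8, -0.51 for S100a9 and 0.34 for S100a6, and S100a8 alone had an unadjusted p under 0.05. Without wt replicate 2, the library with Y-linked transcripts, they were the largest, at -1.36, -0.93 and 0.69. Without cko replicate 2 they were -1.02, -0.66 and 0.50, and no member had an unadjusted p under 0.05.

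**Figure D3:**
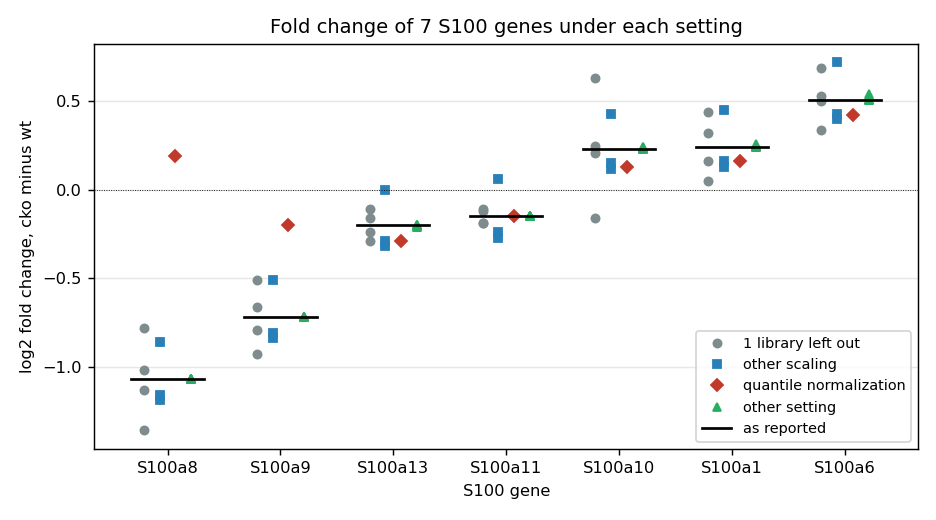
Log2 fold change (cko minus wt) of the 7 tested S100 members as reported (black lines) and under each other setting (points). All points of S100a9 are below 0 and all points of S100a6 above it, whereas S100a8 lies below 0 except under quantile normalization, at 0.19, and the points of S100a10 and S100a11 fall on both sides of 0.

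The measured genes include 13 S100 genes on chromosome 3, which lie in a first cluster of 11 genes over 185 kb and, 2825 kb further on, a second that holds S100a11 and S100a10. Neighbouring members did not always share a direction. S100a1 (90511034 to 90514392, minus strand) and S100a13 (90514435 to 90524581, plus strand) face away from each other with 0.043 kb between them, yet their fold changes were 0.24 and -0.20, with standard errors of 0.19 and 0.14. S100a6 lies 29.8 kb from S100a7a, which lies 10.3 kb from S100a8. S100a8 and S100a9, which are 22.6 kb apart with no other S100 gene between them, were the neighbours with the same direction and the largest differences. S100a11 (93520488 to 93526287) and S100a10 (93555080 to 93564643) are both on the plus strand, 28.8 kb apart, and stood at -0.15 and 0.23.

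**Figure D4:**
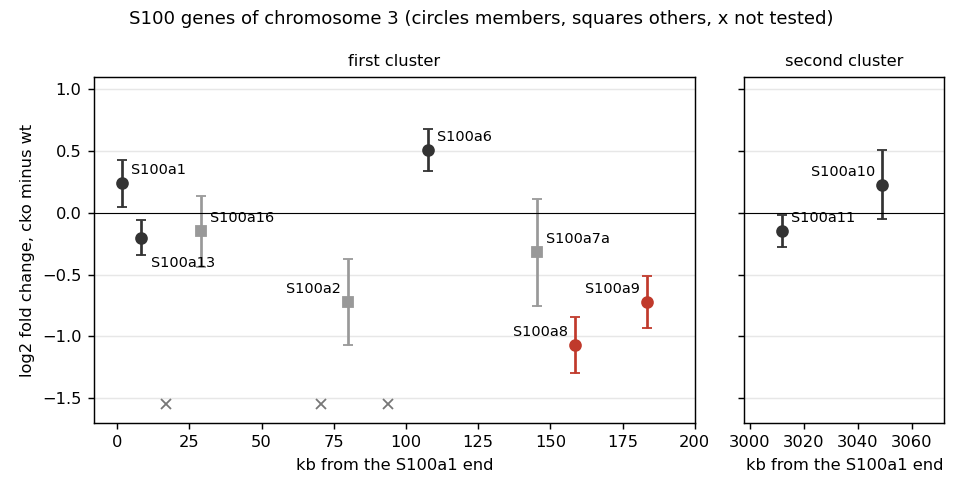
Log2 fold change (cko minus wt) of the S100 genes of chromosome 3 against the distance of the gene's middle from the S100a1 end in kb, with bars of 1 standard error, circles for members (the pair in red) and squares for other S100 genes, and x marks, placed at the bottom, for genes below a mean of 1 FPKM. S100a8 and S100a9 stand lowest at the right of the first cluster with S100a2, whose bar is wider, and S100a6 stands highest.

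Of 10 other genes of the family, 7 were measured and 3 had a mean of at least 1 FPKM. S100a2 had 1.86 and 3.88 FPKM in the wt and 1.69 and 0.897 FPKM in the cko libraries, from 5 to 23 reads, and its log2 fold change of -0.72 (standard error 0.35, unadjusted p = 0.0857, limma) rests on these few reads. It was -1.11 without wt replicate 1 and -0.34 without wt replicate 2. S100a7a had 1.24 and 2.86 FPKM against 2.25 and 0.698 FPKM, and S100a16 had 12.3 and 6.6 FPKM against 7.82 and 8.32 FPKM, so that both overlapped between the groups. The other 4 (S100a3, S100a14, S100b and S100g) had at most 9 reads in any library. S100b, which marks astrocytes in the brain, had 1 read in wt replicate 2 and 1 in cko replicate 1.

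Likeness to each member was measured over the 4 libraries as the root mean square distance between log2(FPKM + 1) profiles, after each gene's own mean was taken off, among 10778 genes. The gene nearest to S100a8 was Stfa1, an inhibitor of cysteine proteinases of the stefin family, at a distance of 0.00726. It had 21374 and 14308 FPKM in the wt and 8743 and 8029 FPKM in the cko libraries, which is the same order and almost the same steps as S100a8. Stfa1 has close copies in the genome, among which reads may be shared, so that its own level is uncertain. The next were Rpa3 at 0.0381 and Tctex1d2 at 0.048. S100a9 was only the 44th nearest to S100a8, at 0.184, and its own nearest genes were Abcg2 at 0.0395, Haus3 at 0.043 and Tvp23b at 0.0449.

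For S100a6 the nearest were Furin at 0.00948, the processed pseudogene Gm12286 at 0.0149 and Prkcd at 0.0197. For S100a11 they were A930006K02Rik, Lypla1 and Tet3, for S100a13 Serinc3, Capn7 and Serinc5, for S100a1 Xpot, Def6 and Pcif1, and for S100a10 Dse, Ltb and Egln3, at distances of 0.00337 to 0.0416. With 4 libraries and 10778 genes some near profiles are found for any gene, and these are descriptions with no test.

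**Figure D5:**
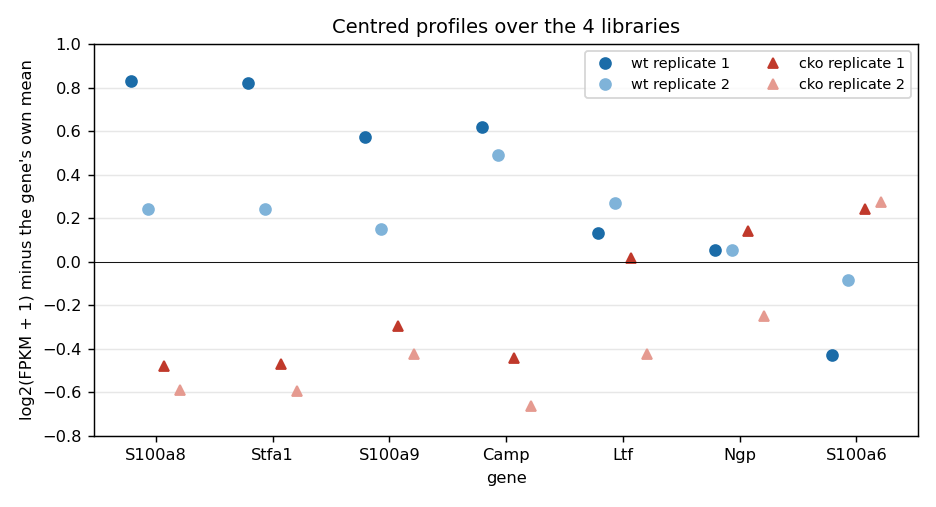
Level of S100a8, Stfa1, S100a9, 3 granule genes of neutrophils (Camp, Ltf and Ngp) and S100a6 as log2(FPKM + 1) minus the gene's own mean over the 4 libraries, with 1 point per library. The points of S100a8 and Stfa1 coincide almost exactly, Camp is also lower in both cko libraries but with a narrower gap between its wt points, and the groups overlap for Ngp.

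The late neutrophil genes, among which the pair is usually counted, did not all follow it. Of 12 late neutrophil genes, 4 were lower and 3 higher in cko at an unadjusted p under 0.05. Of all tested genes, 4.95% were lower and 11.4% higher by this rule. The median log2 fold change of the list was -0.15 against 0.09 for all tested genes. Camp had 19301 and 17673 FPKM in the wt and 9260 and 7948 FPKM in the cko libraries, a log2 fold change of -1.11 (standard error 0.17, unadjusted p = 0.000737, adjusted p = 0.183, limma). Ngp, which encodes neutrophilic granule protein, had 43779 and 43834 FPKM against 46573 and 35443 FPKM, so that its groups overlapped. Ltf (lactoferrin) had 9931 and 10933 FPKM against 9179 and 6761 FPKM, with a log2 fold change of -0.40 (unadjusted p = 0.0935, limma). Ly6g, the surface marker of neutrophils, had 245 and 351 FPKM against 200 and 143 FPKM (-0.79, unadjusted p = 0.0201, limma), whereas the receptor genes Csf3r (0.57) and Cxcr2 (0.51) were higher. Also higher was Lcn2, with 813 and 883 FPKM against 1301 and 1035 FPKM (0.45, unadjusted p = 0.0374, limma). Lcn2 was not followed under the alternatives and is not among the 38 genes counted for them below. Mmp8, a collagenase of granules, had 1109 and 1180 FPKM against 805 and 764 FPKM (-0.54, unadjusted p = 0.00766, limma), and Retnlg had 718 and 873 FPKM against 577 and 528 FPKM (-0.52, unadjusted p = 0.0185, limma).

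The markers of other stages and cells are given beside the pair, and their counts at an unadjusted p under 0.05 are to be read against the 11.4% of all tested genes that were higher and the 4.95% that were lower. The summed level of the late neutrophil list was 78782 and 79075 FPKM in the wt and 71830 and 55529 FPKM in the cko libraries, and that of the 7 early neutrophil genes was 1849 and 1923 FPKM against 2613 and 1991 FPKM. Among the early genes, 2 were higher at an unadjusted p under 0.05, Prtn3 (0.93) and Elane (0.41), and none was lower by this rule. Of all 7, 5 stood above 0, and Fcnb (-0.37) and Cebpe (-0.58) stood below it with overlapping groups. The monocyte list had 2 of 7 higher, Klf4 (0.86) and F13a1 (0.77), with sums of 473 and 467 FPKM against 481 and 573 FPKM. The macrophage list had 2 of 10 higher, Cd68 (0.80) and C1qc (0.55), with sums of 374 and 273 FPKM against 275 and 427 FPKM, which overlap, and a median of 0.07. Among 6 general myeloid genes Lyz2 (-1.79) was lower and Spi1, which encodes PU.1, was higher (0.98), with 77.3 and 126 FPKM in the wt and 264 and 145 FPKM in the cko libraries. Of 9 tested erythroid genes 5 were lower, among them Hbb-bs (-1.06), Hba-a1 (-0.97), Alas2 (-0.67) and Klf1 (-0.57), with a median log2 fold change of -0.67. Also lower were 1 of 6 hepatocyte genes, Apoa1 (-1.18), 2 of 3 B cell genes, Vpreb1 (-0.77) and Cd79a (-0.64), and 1 of 5 mast cell, basophil and eosinophil genes, Prg2 (-1.02), but 0 of 2 megakaryocyte genes. Of 38 genes with an unadjusted p under 0.05 from limma, which are the genes named from the lists with Stfa1 and Pdcd1, 8 kept it with each library left out in turn (Anxa1, Anxa11, Camp, Lyz2, Prtn3, Hbb-bs, Hba-a1 and Apoa1). Among the markers that moved by over 1.5 times were Csf3r (0.35), Cxcr2 (0.29), F13a1 (0.50), Cd68 (0.37) and C1qc (0.29) without cko replicate 2, Elane (0.25) and Spi1 (0.55) without cko replicate 1, Spi1 (0.63), Vpreb1 (-0.46) and Prg2 (-0.63) without wt replicate 1, and Cd68 (1.23) without cko replicate 1. The part of these cells and stages in the S100 levels was not tested.

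Of 24 genes of known S100 partners and receptors, 21 were tested, and 4 were higher and 4 lower in cko at an unadjusted p under 0.05 (limma). Of all tested genes, 11.4% were higher and 4.95% lower by this rule. The median log2 fold change of the list was 0.22, or 0.10 after median-of-ratios rescaling. The annexin that S100A11 binds, Anxa1, had 3871 and 3303 FPKM in the wt and 2220 and 2027 FPKM in the cko libraries (-0.75, standard error 0.16, unadjusted p = 0.00358, adjusted p = 0.205, limma), a larger difference than that of S100a11. Anxa2, whose protein binds S100A10, had 61.4 and 64.7 FPKM against 73.2 and 80.3 FPKM (0.28, unadjusted p = 0.0932, limma). Ahnak, a large scaffold protein bound by S100A10 with annexin A2, had 3.57 and 2.52 FPKM against 6.01 and 9.74 FPKM (1.11, unadjusted p = 0.00753, limma). Among partners of S100A6, Anxa11 had 9.13 and 10.1 FPKM against 5.94 and 4.46 FPKM (-0.78, unadjusted p = 0.00757, limma). Another, Cacybp, the calcyclin-binding protein, had 91.4 and 92.7 FPKM against 54.9 and 73.4 FPKM (-0.53, unadjusted p = 0.0277, limma). The value of Cacybp was -0.32 without cko replicate 1, and also with erythroid and hepatocyte genes removed and summed FPKM made equal. Myh9, the non-muscle myosin bound by S100A4, had 47.2 and 64.5 FPKM against 39.9 and 35.0 FPKM (-0.55, unadjusted p = 0.0333, limma), which was -0.33 without wt replicate 2. The other 13 tested genes of the list, Anxa2, Anxa6, Sugt1, Ly96 and Cd36 among them, had an unadjusted p of 0.05 or more.

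On the receptor side of calprotectin, Tlr4 had 13.7 and 8.9 FPKM in the wt and 13.5 and 23.8 FPKM in the cko libraries, which overlap (0.65, unadjusted p = 0.0959, limma). Its co-receptor gene Cd14 had 123 and 65.0 FPKM against 151 and 439 FPKM (1.51, standard error 0.55, unadjusted p = 0.0357, adjusted p = 0.275, limma), and cko replicate 2 alone held most of that difference, which was 0.75 without it, 2.28 without cko replicate 1, and past an unadjusted p of 0.05 neither under a replicate block nor without a filter on low values. Myd88, the adaptor below TLR4, had 81.0 and 83.1 FPKM against 125 and 206 FPKM (0.96, unadjusted p = 0.0099, adjusted p = 0.214, limma), which was 0.60 without cko replicate 2. Cd69, a surface receptor reported to bind the S100A8 and S100A9 complex, had 9.55 and 7.62 FPKM against 11.4 and 17.8 FPKM (0.68, unadjusted p = 0.0372, limma), which was 0.38 without cko replicate 2 and had an unadjusted p of 0.0668 after median-of-ratios rescaling. Ager, which encodes RAGE, had 3.47 and 4.71 FPKM against 8.55 and 3.59 FPKM, with cko replicate 1 alone standing apart, and Bsg, which encodes basigin, had 125 to 135 FPKM in all 4 libraries.

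Among 21 other genes of EF-hand calcium-binding proteins, 7 were lower and 1 was higher at an unadjusted p under 0.05 (limma), with a median log2 fold change of 0.06, or -0.06 after median-of-ratios rescaling. The lower ones included Calm2, which encodes calmodulin, with 318 and 251 FPKM in the wt and 175 and 184 FPKM in the cko libraries (-0.65, unadjusted p = 0.00863), Cetn3, a protein of centrioles, with 61.7 and 44.5 FPKM against 22.7 and 36.3 FPKM (-0.84, unadjusted p = 0.0238), Actn1 (-0.65), Ppp3r1 (-0.50) and Myl6, a myosin light chain, with 284 and 264 FPKM against 181 and 193 FPKM (-0.55, unadjusted p = 0.00726). The higher one was Capn2, a subunit of the protease calpain, with 3.64 and 4.24 FPKM against 5.92 and 10 FPKM (0.83, unadjusted p = 0.0225). Without cko replicate 1 Cetn3 was at -0.52, without wt replicate 2 Actn1 was at -0.33, without wt replicate 1 Ppp3r1 was at -0.30 and without cko replicate 2 Capn2 was at 0.49, none past an unadjusted p of 0.05. Over all tested genes, 1234 were higher and 534 lower by this rule, or 822 and 854 after median-of-ratios rescaling. For 1 gene alone, 0.333 is the smallest two-sided p that exact permutation of 2 against 2 libraries allows.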

How the data were processed

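The authors deposited 1 FPKM value per gene and library from Illumina sequencing of total RNA, and the submitters' processing notes name Bowtie2 2.2.3, TopHat2 2.0.12, HTSeq 0.6.0 and mm9. Their roles and the strandedness are not given in the sources used here. Of the gene positions in the files, 92.61% were identical to GENCODE M21 (GRCm38), and positions are given in that build. Values were whole multiples of 1 read for 91.29% of the genes in all libraries (99.93% to 99.97% of single-exon values, tolerance 0.02), from which reads and library totals were recovered. For a gene of 1 kb, 1 read is worth between 0.0450 and 0.0565 FPKM. Intervals are exact 95% Poisson intervals and, like the level of 3 reads, cover counting error only.

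Groups were taken from the labels. Genes whose mean reached 1 FPKM were compared with limma 3.58.1 in R 4.3.3 (lmFit, eBayes with a trend) on log2(FPKM + 1), which understates changes of low genes, without covariates, and p-values were adjusted by Benjamini-Hochberg over all tested genes. Where a symbol had more than 1 row, the highest was used. The fit was tested on simulated data. Alternatives were a pseudocount of 0.1 or 0.01, a minimum mean of 5 FPKM or none, rescaling by the median of ratios or by quantiles, removal of erythroid and hepatocyte genes or of the 10 highest genes (S100 members kept) with rescaling, voom on genes with a mean of 10 or more recovered reads, eBayes with no trend, a replicate block, and leaving out each library. With erythroid and hepatocyte genes removed, every library was brought to the same summed FPKM, so that this setting mostly reflects equal sums. Named are all members, other S100 genes above the filter, listed genes with an unadjusted p under 0.05 and groups apart (up to 6 per list, by size) with defining markers, and the 3 nearest profiles per member. Other genes named (Anxa2, Anxa6, Sugt1, Cacybp, Myh9, Tlr4, Ly96, Cd36, Ager, Bsg, Lcn2, Fcnb and Cebpe) were chosen after their values were seen. Lcn2, Fcnb and Cebpe were not followed under the alternatives. A result of 1 listed gene is not reported here. The members and lists were chosen with earlier results of these data known. The gene ontology and KEGG columns of the files were not used.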

Additional observations from a re-analysis of the deposited data

How the results depend on the processing

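Of 105 alternative fold changes of the 7 tested members, 87 kept their direction and their side of an unadjusted p of 0.05, 13 no longer passed it, 1 newly passed it and 4 turned their direction. The number of members past the methods threshold was 0 in every setting. The number past an unadjusted p under 0.05 was 3, and was 1 without a filter on low values (S100a6), 0 with quantile normalization and between 0 and 3 with 1 library left out, with 1 without wt replicate 1 (S100a8) and 0 without cko replicate 2. Members apart between groups were 5, and 3 with quantile normalization. With erythroid and hepatocyte genes removed and summed FPKM made equal they were also 5, with S100a1 in place of S100a13. The pair against the other members was -0.99, and -0.05 with quantile normalization and S100a4 left out, which by construction equalizes the highest ranks. Turned were S100a8 with quantile normalization (0.19), S100a10 without cko replicate 2 (-0.16, and 0.63 without cko replicate 1), and S100a11 (0.06) and S100a13 (0.00) with erythroid and hepatocyte genes removed and summed FPKM made equal. Turned among the other genes named were S100a7a without wt replicate 2 (0.07) and without cko replicate 2 (0.14, in a range from -0.79 with 1 library left out), S100a16 with erythroid and hepatocyte genes removed (0.04) and without wt replicate 1 (0.25, range from -0.56), Ager without cko replicate 1 (-0.14, range to 0.92), and Ngp with quantile normalization (0.20), with erythroid and hepatocyte genes removed (0.10) and without cko replicate 2 (0.09, range from -0.31). Of 670 alternative values of the 46 other genes, 522 kept direction and side, 132 no longer passed, 8 newly passed and 8 turned, and 5 of the 38 genes that passed did so in every setting (Anxa11, Prtn3, Hbb-bs, Hba-a1 and Apoa1). The causes were not tested except where stated.

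With the replicate number as a block (replicate block), S100a8 (-1.07) and S100a9 (-0.72) still had an unadjusted p under 0.05 and S100a6 (0.51) did not, and 1247 genes had an unadjusted p under 0.05 against 1768 without it. The labels give the numbers no meaning, and deviations of same-numbered libraries correlated at -0.163 across genes. With the pairing crossed, chosen after seeing the data, 2255 genes had an unadjusted p under 0.05. No gene passed the methods threshold except 2 with voom on recovered reads and 1 with the crossed pairing. Without wt replicate 1 the genes at an unadjusted p under 0.05 were 845, and without cko replicate 2 they were 1073. Without a filter 2408 and with a minimum of 5 FPKM 1135 genes had an unadjusted p under 0.05. The share of these that were higher was 69.8%, 49.0% with median-of-ratios rescaling, 47.4% with quantile normalization and 55.5% with the 10 highest genes removed. It was 92.3% with erythroid and hepatocyte genes removed and summed FPKM made equal. With 2 libraries per group, the differences of S100a1, S100a10, S100a11 and S100a13 did not pass an unadjusted p of 0.05, and no fold of S100a4 can be given from 2 reads.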
